A study of Mus musculus with 2 samples.

Results

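The 7 listed globin genes, Hba-x, Hba-a1 and Hba-a2 of the alpha cluster and Hbb-bt, Hbb-bs, Hbb-bh1 and Hbb-y of the beta cluster, were examined for CTCF binding in newborn mouse forebrain. They are 7 of 32093 protein-coding and long noncoding RNA genes on placed chromosomes. The sites taken were all CTCF peak summits between the ends of each cluster and within 150 kb on either side, and no signal value was used to choose them. This gave 34 of the 56462 summits on placed chromosomes in the list that passed the authors' irreproducible discovery rate threshold (the optimal list), 27 in the alpha region and 7 in the beta region. In the list called on both libraries together (the pooled list), 122 of 300000 peaks had their summit in the regions, 110 in the alpha region and 12 in the beta region.

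CTCF occupancy came from ChIP-seq, the sequencing of DNA pulled down with an antibody to CTCF, on B6NCrl forebrain at postnatal day 0. The tissue was pulverized and pooled over several dissections, the sex of the pups was not collected, and the labels name no allele or treatment. The series held 1 group of 2 libraries, biological replicates 1 and 2, which cite the same biosample and donor, and any difference between them may be technical. No second condition, no blood sample and no RNA were measured, and the labelled tissue could therefore not be checked against its markers. The depth of sequencing is not stated in the labels or lists. The measure of each site was the signal value that the authors' peak caller wrote, whose scale was not stated.

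Globin genes encode the oxygen-carrying chains of hemoglobin and are transcribed in red cell precursors. Hba-x and the beta-type genes Hbb-y and Hbb-bh1 are used in the embryo, and Hba-a1, Hba-a2, Hbb-bs and Hbb-bt are the adult genes. Distant enhancers act on both clusters: those of the alpha genes lie among introns of the neighbouring gene Nprl3, and the beta locus control region lies upstream of Hbb-y. CTCF is a zinc-finger protein that stops cohesin and so marks the ends of many chromatin loops, which form most often between CTCF motifs that point toward each other. In red cell precursors CTCF sites are known on both sides of each cluster. Both clusters are taken to be silent in neural cells.

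The sequences of the sites that carry the description are given here as 30 bases from the mm10 reference, read along the strand of the motif match. Capitals mark the 14 bases matched to the CTCF consensus, which had to lie within 50 bp of the summit and to differ by no more than 2 mismatches. The first set holds the strongest site of the alpha region, the sites in introns of Rhbdf1 and Nprl3, and the pair at the start sites of the theta-globin genes Hbq1b and Hbq1a.
alpha, 114033 bp before the cluster (summit 32162367, minus strand): cggcctcgCCACCAGGGGGCAGagcatgcg
alpha, Rhbdf1 intron (summit 32217043, plus strand): ataaatgaCCACGAGGTGGCGCcaactgcc
alpha, Nprl3 intron (summit 32238657, minus strand): ccctgaggCCACCAGAGGGTAGcagaggcc
alpha, Nprl3 intron (summit 32247273, plus strand): aaattggtCCACTGGGTGGCACttggaggc
alpha, Hbq1b start (summit 32286963, minus strand): acaagaggCCGCCAGGGGGCGCtgcatcgt
alpha, Hbq1a start (summit 32300076, minus strand): acaagaggCCGCCAGGGGGCGCtgcatcgt
The next set holds the 5 of 7 beta-region sites with a match, in chromosome order, to show their strands. The summits nearest to Hbb-y, 103873263 and 103873465, have no match and so no line.
beta, 100324 bp before the cluster (summit 103712200, plus strand): ggggatagCCACTAGAGGGTGCcagacacc
beta, 5439 bp before the cluster (summit 103807085, minus strand): tcagtcaaCCTCAAGGGGGCAGtattgagc
beta, 21391 bp after the cluster (summit 103874607, minus strand): cgttttcaCCACTAGAGGGAAGacaattat
beta, 59969 bp after the cluster (summit 103913185, minus strand): tagtgtagCCACCAGGGGGAAGgggtaacc
beta, 89732 bp after the cluster (summit 103942948, minus strand): agatgtgaCCAGGAGAGGGCAGcagagggt
"Before" and "after" follow the chromosome coordinates. The alpha genes lie on the plus strand and the beta genes on the minus strand, so the end of the beta cluster with the higher coordinate is the upstream side of Hbb-y.

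No listed gene had an optimal-list summit within 1 kb of a transcription start site (TSS), 0 of 7, where 30.5% of all coding and long noncoding genes had one. With any of the weaker pooled-list summits the count was again 0 of 7, beside 60.8% of all genes. No summit of the optimal list lay in the body of a listed gene. From the TSS to the nearest optimal-list summit the distance was 8929 bp for Hba-x (chr11:32276400-32278116), 2559 bp for Hba-a1 (chr11:32283511-32284465) and 3587 bp for Hba-a2 (chr11:32296489-32297298). It was 6911 bp for Hbb-bt (chr7:103812524-103813996), 20843 bp for Hbb-bs (chr7:103826534-103828096), 30099 bp for Hbb-bh1 (chr7:103841637-103843164) and 20047 bp for Hbb-y (chr7:103851749-103853216). Coding genes had a median distance of 4170 bp (interquartile range 301 to 21860 bp, n = 21938). Hba-a1 and Hba-a2 were nearer to a summit than that median, and the other 5 genes were farther. The peaks nearest to Hba-a1 (32286070) and Hba-a2 (32300076) had 17.0% and 32.7% of their 36-base windows found once in the genome. With the pooled list the distance fell only for Hba-x, to 3471 bp, and for Hba-a2, to 2592 bp.

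The surroundings of the clusters differed in how many sites they held. The alpha region (chr11:32126400-32447298, 321 kb) held 8.41 summits of the optimal list in each 100 kb (exact Poisson interval at 95% from 5.54 to 12.2), where all placed chromosomes held 2.13 and chromosome 11 held 3.48. Among 8007 consecutive windows of the same length along the genome, the median held 5 summits (interquartile range 1 to 11), and 146 (1.82%) held 27 or more. The beta region (chr7:103662524-104003216, 341 kb) had 2.05 per 100 kb (0.826 to 4.23), against 2.68 over chromosome 7. Of 7534 windows of its length, 44.9% held 7 or more and 59.7% held 7 or fewer, with a median of 6. The alpha region thus stood among the densest windows and the beta region near the middle. The intervals cover counting error only and take sites as independent, which neighbouring sites need not be. The contrast was larger in the pooled list, with 34.3 per 100 kb around the alpha cluster, 3.52 around the beta cluster and 11.3 over placed chromosomes.

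**Figure D1:**
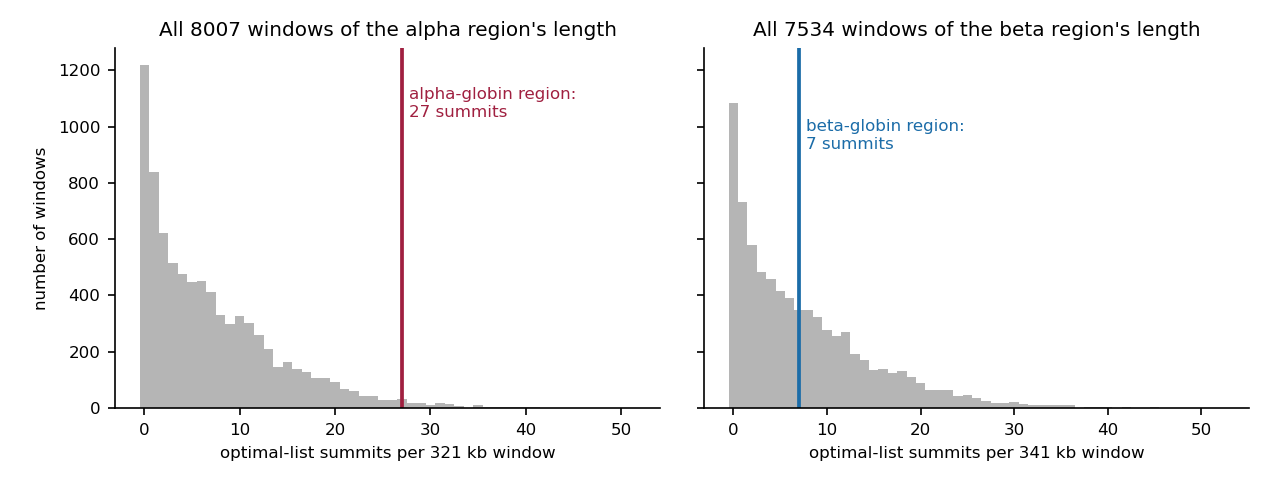
Number of consecutive genome windows (y axis) by the optimal-list summits each holds (x axis), for windows as long as the alpha region (left) and the beta region (right). Vertical lines mark the regions: 27 summits, reached by 1.82% of windows, and 7 summits, reached by 44.9%.

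Sites around the alpha cluster were also stronger than those around the beta cluster. The signal values of the 27 alpha sites in the optimal list ran from 16.1 to 464 with a median of 92.9, and 16 of 27 were at or above the median of 64.3 over all placed peaks. The 7 beta sites ran from 14.3 to 121 with a median of 31.4, and 3 of 7 reached that median. In replicate 1 the alpha sites had a lowest, median and highest value of 8.35, 54.9 and 246, and in replicate 2 of 8.22, 49.3 and 220. In replicate 1 the beta sites had values of 8.97, 40.6 and 66.2, and in replicate 2 of 5.63, 40.1 and 54.1. These count 1 replicate peak at both 103873263 and 103873465, which it overlaps. By the replicate peak with the nearest summit, the lowest and median beta values were 7.61 and 21.3 in replicate 1. In replicate 2 they were 4.55 and 15, and the highest values were the same. The alpha values likewise count 1 replicate peak (92 and 92.5) at both 32342948 and 32343153. The nearest peaks at 32343153 were 25 and 26.4, so the alpha medians also fall by that measure. The ranges of the 2 regions overlapped in both libraries. The authors' score stood at its ceiling of 1000 for 20 of 27 alpha and 4 of 7 beta sites. The share of all optimal-list peaks at that ceiling was not taken, so these counts do not set either region apart.

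The beta cluster itself held no site. Between its ends (chr7:103812524-103853216, 40.7 kb) there was no summit in any of the 5 lists: optimal, conservative, pooled, replicate 1 or replicate 2. A count of 0 in 40.7 kb has an upper 95% Poisson limit of 9.07 optimal-list summits per 100 kb, above the genome's 2.13, so a cluster of this length cannot show a lack of optimal-list sites by its own count. The space free of summits reached from 103807085 on the Hbb-bt side to 103873263 on the Hbb-y side, 66.2 kb in both the optimal and the pooled list. Of 56441 gaps between neighbouring optimal-list summits 16% were at least as long (median gap 15803 bp). Of 299916 gaps between pooled-list summits 1.40% were as long (median gap 3243 bp). These shares count gaps, not the length they cover, and this gap was taken because it holds the cluster, so they describe its length and show no rarity.

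The sites that bracketed the beta cluster had nearly equal strength. The site 6911 bp downstream of the Hbb-bt TSS, where Hbb-bt is an adult beta-globin gene, had a signal value of 86.6, with 40.6 in replicate 1 and 46.4 in replicate 2. The site 20047 bp upstream of the TSS of Hbb-y, the embryonic gene next to the locus control region, had 85.9, with 48.8 and 40.1. Replicate 1 was the lower library at the Hbb-bt side and the higher at the Hbb-y side, and the values of the 2 sites overlapped. The Hbb-bt side had a minus-strand motif match 6.5 bp from its summit, and the Hbb-y side had no match with at most 2 mismatches.

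On the Hbb-y side 3 summits stood close together. Next to 103873263 was 103873465, with a signal value of 14.3 and nearest replicate peaks of 7.61 and 4.55, and it had no match. The peaks of these neighbours overlap, so the strongest overlapping replicate peak gave 48.8 and 40.1 at both. The last of the 3, 103874607, had 31.4, with 21.3 in replicate 1 and 11.6 in replicate 2, and a minus-strand match 41.5 bp from the summit. Of these neighbours, only 103873263 was above the median of 64.3 over all peaks.

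The other 3 beta sites were farther out, among genes of olfactory receptors, the odour sensors of the nose. The strongest of the region, 103942948, lay 1489 bp from the TSS of Olfr633 with a signal value of 121 (66.2 and 54.1). The site at 103913185, 6843 bp from the TSS of Olfr65, had 25.2, with 8.97 in replicate 1 and 15 in replicate 2. The site at 103712200, 2471 bp from the TSS of Olfr243, had 23.6, with 15.7 and 5.63. The first of these was above the median of all peaks. The other two were below the lower quartile of 32.2, higher in different libraries and absent from the conservative list. All 7 beta sites were intergenic. None of the 23 coding genes of the region, 18 of them olfactory receptors, had one at 1 kb or less from a TSS. Over all coding and long noncoding genes 30.5% had one.

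**Figure D2:**
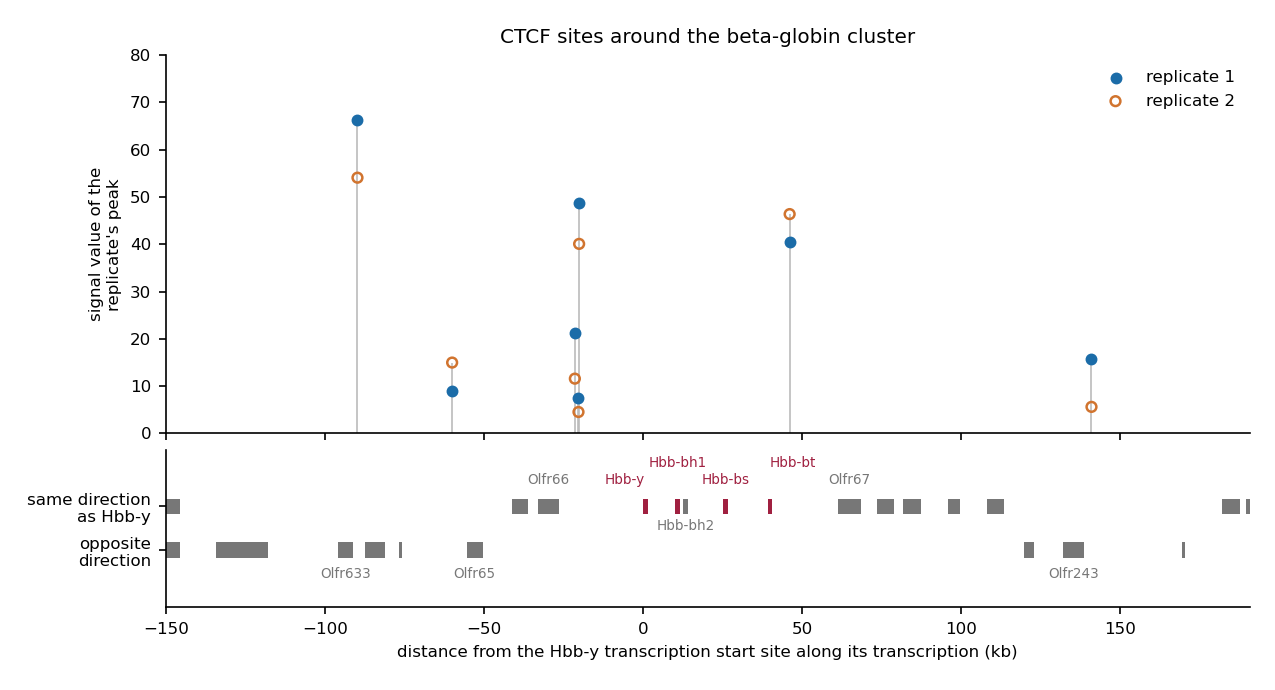
Signal value of each replicate (y axis; filled blue, replicate 1; open orange, replicate 2) at the 7 optimal-list sites by distance from the Hbb-y TSS along its transcription (x axis, kb), with coding genes below and the listed genes in red. Each value is that of the replicate peak with the nearest summit; no site falls between Hbb-y and Hbb-bt, and the bracketing sites lie between 40.1 and 48.8 in both replicates.

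The alpha cluster (chr11:32276400-32297298, 20.9 kb) held 2 optimal-list sites, neither of them at a listed gene. The stronger, 32286963, lay 2 bp from the TSS of Hbq1b, a theta-globin gene between Hba-a1 and Hba-a2. Its signal value was 182, with 89.7 in replicate 1 and 91.4 in replicate 2. The weaker, 32286070, lay 895 bp from the same TSS and 2559 bp from that of Hba-a1, with 21.9 (14.2 and 8.22). It was absent from the conservative list, and 79.2% of its window was soft-masked repeat. Just past the end of the cluster, 2778 bp on, a site at 32300076 lay 7 bp inside Hbq1a, the second theta-globin gene, with 191 (112 and 79.8). By these values the Hbq1b site was near equal in the 2 libraries and the Hbq1a site was higher in replicate 1, and their values overlapped. Over all peaks replicate 1 was higher, by a median log2 ratio of 0.20. With that median removed, the ratio was -0.23 at the Hbq1b site and 0.29 at the Hbq1a site. Among peaks of like signal its SD was 0.23.

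These theta-globin sites shared their sequence as well as their place. Hbq1b and Hbq1a are duplicates: with 1000 bases added on each side they aligned over 1771 columns at 90.7% identity. An identical stretch of 105 bases ended next to each TSS and held the match. The 120 bases before each start site follow, on the plus strand, with the minus-strand match in capitals.
Hbq1b, chr11:32286845-32286964: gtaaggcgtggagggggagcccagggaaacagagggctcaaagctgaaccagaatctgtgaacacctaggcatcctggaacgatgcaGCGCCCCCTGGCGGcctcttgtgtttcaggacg
Hbq1a, chr11:32299949-32300068: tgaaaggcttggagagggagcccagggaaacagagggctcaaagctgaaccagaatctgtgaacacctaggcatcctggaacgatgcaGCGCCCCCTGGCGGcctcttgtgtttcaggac
The match centres stood 24.5 bp and 32.5 bp from the summits, where the median over all 37616 matched peaks was 6.5 bp and 8.53% were 24.5 bp or more away. Of the 36-base windows in the 2 peaks, 34.0% and 32.7% occur once in the genome. Reads inside the shared stretch could come from either gene, so the division of signal between Hbq1b and Hbq1a is uncertain. How reads with several places were handled is not stated in the labels or lists.

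Before the alpha cluster 17 sites were found, and the strongest lay far from the TSS of any coding gene. The site at 32162367 had 464, higher than 99.6% of the optimal list, with 246 in replicate 1 and 220 in replicate 2. It was intergenic, 37855 bp from the TSS of Il9r, the interleukin 9 receptor gene, and the only alpha site whose match had 0 mismatches. Another 8 sites lay 17519 to 67814 bp from the TSS of Il9r, of which 32182703 (283; 148 and 134) and 32141221 (282; 165 and 118) were strongest. These 3 sites were high in both libraries, and none overlapped the range of the beta region. The other 6 of that group had lower values: 32161649 (104; 54.9 and 48), 32132408 (92.9; 43.8 and 49.3), 32150138 (54; 22.8 and 28.7), 32153002 (45.4; 26.4 and 20.8), 32136293 (24.8; 12.3 and 12.4) and 32164961 (24.7; 11.5 and 11.5). Their replicate values lay close together, and none reached those of the 3 strongest.

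Closer to the cluster, sites lay in the genes that surround the alpha enhancers. In an intron of Rhbdf1, which encodes an inactive rhomboid protease, the site 32217043 had 270 (147 and 124). Nprl3 encodes a subunit of GATOR1, an inhibitor of the growth kinase complex mTORC1, and had 3 sites in its introns alone. The middle one, 32238657, had 347 (196 and 151), the outer one, 32237220, had 171 (103 and 69), and 32247273, the nearest to the globin genes at 29127 bp from the cluster, had 63.7 (38.7 and 24.4). In all 3, replicate 1 was higher, and their values did not overlap one another. Between 32247273 and the cluster stood only a weak site at 32267471, with 22.6 (13 and 9.81), 76 bp from the Nprl3 TSS in a coding exon. An Nprl3 intron also overlaps the coding exon of Mpg that holds 32226683, the alpha site of lowest signal value. Sites in introns of Nprl3 thus ran from the second highest of the region, 347, to the lowest, 16.1. Sites also lay near the starts of Snrnp25, a gene of the minor spliceosome (76.8; 42.4 and 35.8; 289 bp), and of Mpg, a DNA glycosylase gene (16.1; 8.35 and 10.5; 172 bp). A weak site, 32223495 (26.7; 11.8 and 14), lay 1195 bp from the Rhbdf1 TSS.

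After the cluster 8 sites were found, with a median signal value of 178. The first past Hbq1a was 32321398, 24100 bp from the cluster, with 189 (107 and 82.8). The strongest was 32324844, 27546 bp away, with 302 (174 and 129) and no match with at most 2 mismatches. Then came 32341301 with 173 (102 and 71.8) and 32342948 with 184 (92 and 92.5), within 6519 bp of the TSS of Sh3pxd2b, which encodes an adaptor protein of podosomes. The remaining ones were weaker: 32334257 (26.7; 12.7 and 10.6), 32343153 (44.3; nearest replicate peaks 25 and 26.4) and 32375154 in an intron of Sh3pxd2b (72.5; 34.1 and 37.2). In all, 5 of 11 coding genes of the alpha region had a site at 1 kb or less from a TSS: Hbq1a, Hbq1b, Snrnp25, Nprl3 and Mpg. Over all coding and long noncoding genes the share was 30.5%.

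**Figure D3:**
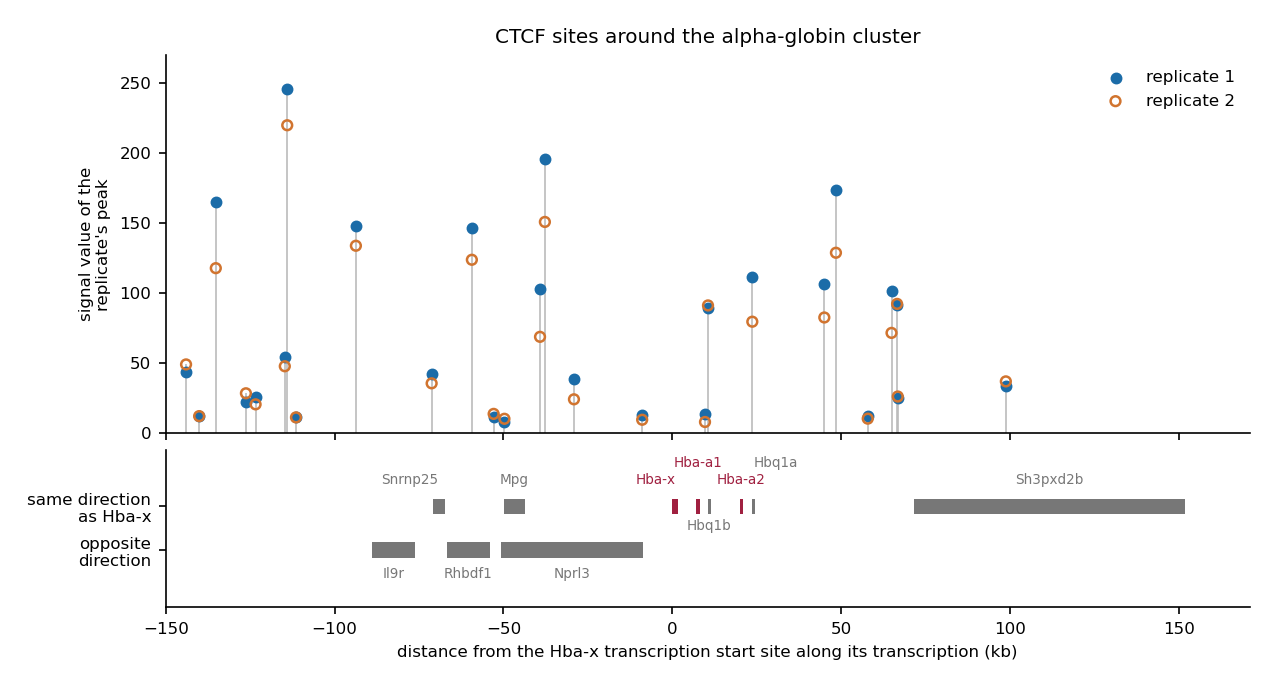
Signal value of each replicate (y axis; filled blue, replicate 1; open orange, replicate 2) at the 27 optimal-list sites by distance from the Hba-x TSS along its transcription (x axis, kb), with coding genes below and the listed genes in red. Each value is that of the replicate peak with the nearest summit, or the strongest overlapping peak at the 1 site without one; the highest pair, 246 and 220, lies 114033 bp before Hba-x, and no site lies on a listed gene.

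The replicates differed less at the alpha sites than at the beta sites. The ratio of replicate 1 over replicate 2 on the log2 scale, centred by removing its median of 0.20 over all peaks, had a standard deviation of 0.30 over the 27 alpha sites and 0.72 over the 7 beta sites, and of 0.50 over 56235 peaks. It ran from -0.53 to 0.59 in the alpha region and from -0.95 at 103913185 to 1.28 at 103712200 in the beta region. Over all peaks this SD was 0.80 in the weakest of 10 equal classes by signal value and 0.13 in the strongest, and the beta sites were the weaker. Set against peaks of like strength (the same class), 1 of 27 alpha sites and 0 of 7 beta sites lay beyond 2 SD, where 4.71% of all peaks did. That site was 32141221, at 0.27 where the SD of its class was 0.13. With 1 library on each side no test was possible.

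**Figure D4:**
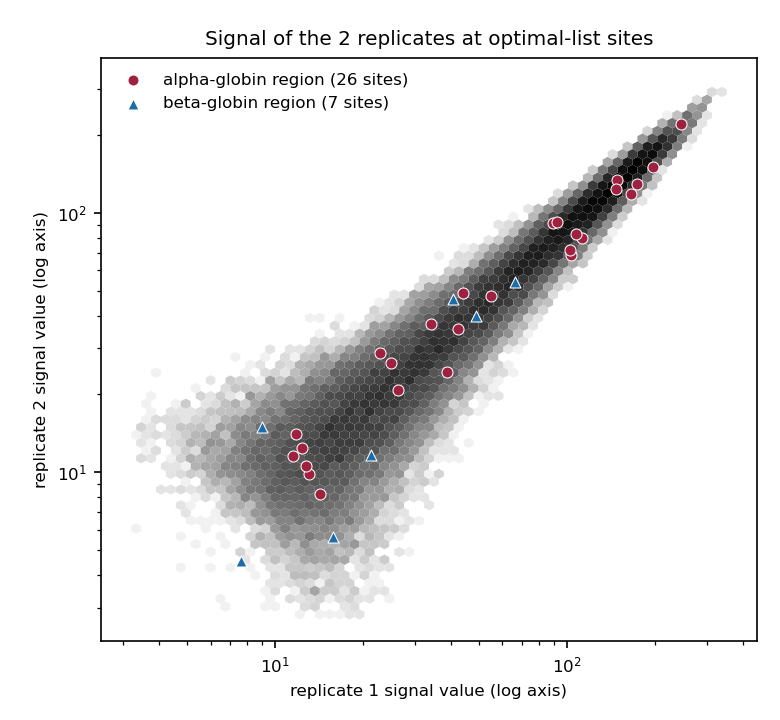
Signal value in replicate 1 (x axis, log) against replicate 2 (y axis, log) at optimal-list sites; grey hexagons are all sites, darker where more fall, red circles 26 alpha sites and blue triangles 7 beta sites, each by the replicate peak with the nearest summit. The alpha site at 32226683 has no replicate 2 summit within 100 bp and is not drawn; beta sites lie in the lower and middle range, and alpha sites run to 246 and 220.

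A motif match was found at 17 of 27 alpha sites (63.0%) and 5 of 7 beta sites (71.4%), where 66.6% of all optimal-list peaks had one and 2.91% of windows 1000 bp upstream did. Both shares were near that of all peaks. Alpha sites with a match had a median signal value of 173 (21.9 to 464), and those without had 49.7 (16.1 to 302), beside 93 and 38.3 over all peaks. Sites of high signal without a match were 32324844 (302), 32182703 (283) and 32237220 (171), and each had its best place at 3 mismatches. Against a weight matrix of CTCF matches with a limit of 6.12, 32182703 passed (8.73), and 32324844 (5.63) and 32237220 (0.56) did not. By that matrix 21 of 27 alpha sites (77.8%) and 5 of 7 beta sites (71.4%) had a match, beside 75.4% of all peaks. In the beta region the order of the medians was the reverse, 31.4 (23.6 to 121) for the 5 sites with a match and 50.1 for those without. The latter are only 2 sites (14.3 and 85.9) whose peaks overlap, so no division by match can be read there.

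The strands of the matches were mixed around the alpha cluster and mostly alike around the beta cluster. Along chromosome 11 the 9 matches before the alpha cluster held 5 on the plus strand and 4 on the minus strand, the 2 inside 1 of each, and the 6 after it 2 plus and 4 minus. At 32136293, counted as minus, the best weight-matrix match (7.32) was on the plus strand, so its strand is not settled. Outside the stretch from Hba-x to Hbq1a, the nearest matches were plus at 32247273 in Nprl3 and minus at 32321398, which point toward each other. In the beta region 1 match was on the plus strand, 103712200, and 4 on the minus strand, the strand of the beta genes. The nearest matches on either side of the beta cluster, 103807085 and 103874607, were both on the minus strand and did not point toward each other, and the stronger site of the Hbb-y side, 103873263, had no match to orient. No contact between sites was measured.

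Motif places without an optimal-list peak were present in both regions. With at most 1 mismatch, 11 of 18 places of the alpha region (61.1%) and 4 of 8 of the beta region lay at an optimal-list summit, where 31.2% of 66933 such places of the genome did. Not all other alpha places lacked a peak. The place starting at 32230392 lay 46 bp from a pooled-list summit and 46 and 13 bp from summits of replicates 1 and 2. That starting at 32177814 lay 25 bp from a replicate 1 summit. Of the 6945 places with 0 mismatches, 77.2% lay at a summit. The 1 such place of the alpha region is the strongest alpha site, and the 1 of the beta region was not at a summit. The latter lay 1279 bp from the TSS of Olfr67, on the Hbb-bt side, and its sequence is shown with that of the only place inside the beta cluster.
beta, no summit (chr7:103793094-103793107, plus strand): gttgcataCCAGTAGGGGGCAGaagtgttc
beta, inside the cluster, no summit (chr7:103819345-103819358, minus strand): agctagacTCACTAGAGGGCACagcgacaa
The nearest summit to the first stood 13973 bp away or farther in the optimal, pooled and replicate lists. Its score against a weight matrix of CTCF matches was 20.95, near the median of 21 over 5330 peaks with 0 mismatches, and all 36-base windows around it occur once in the genome. The second lies wholly in soft-masked repeat, and no 36-base window around it is found once. The same 14 capitals stand at 2 other places of the beta region, also in repeat and without a summit.

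Repeats supplied part of the alpha sites. In the 101 bases around the summit, 6 of 27 alpha sites (22.2%) and 1 of 7 beta sites (14.3%) were over 50% soft-masked repeat, beside 13.9% of all summits. The 4 alpha matches that lie in repeat all held the 11 letters CAGAAGAGGGC, as these sequences show.
alpha, 143992 bp before the cluster (summit 32132408, 92.9): taaagaggCCAGAAGAGGGCATaggatact
alpha, inside the cluster (summit 32286070, 21.9): cagacaaaCCAGAAGAGGGCATcagatagt
alpha, 36959 bp after the cluster (summit 32334257, 26.7): tgtggagtCCAGAAGAGGGCGCtgacaccc
alpha, 45855 bp after the cluster (summit 32343153, 44.3): tacagtggACAGAAGAGGGCGCcagatcct
These letters, taken from the alpha sites after they were seen and searched on both strands, were present at 4 of 27 alpha and 0 of 7 beta sites and at 8.99% of all summits. They stood at 52.3% of the 7855 summits over 50% in repeat and in 0.430% of windows 1000 bp upstream. Repeat families were not assigned here.

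Duplicated sequence limits what short reads can show at the genes themselves. The share of 36-base windows found once in the genome was 3.91% in Hba-a1, 4.65% in Hba-a2, 26.4% in Hbb-bt and 30.7% in Hbb-bs, the 4 adult genes. It was 96.2% in Hba-x and 100% in Hbb-bh1 and Hbb-y, the embryonic ones. Hba-a1 and Hba-a2 aligned at 97.6% identity over 2218 columns, and Hbb-bs and Hbb-bt at 95.6% over 1486. In the 1 kb upstream of each gene the share was 51.5% for Hba-a1 and 34.8% for Hba-a2, and 94.1% to 100% for the other 5. Over the clusters it was 75.8% (alpha) and 77.4% (beta). Over the whole regions, in which sites were counted, it was 93.6% (alpha) and 80.9% (beta). Whether this bears on the difference in site number was not tested. The lack of a summit within 1 kb therefore rests on sequence that reads can reach at Hba-x, Hbb-bh1 and Hbb-y, and far less so in the bodies of the 4 adult genes and upstream of Hba-a1 and Hba-a2. Read length is not stated in the labels or lists, and 36 bases were chosen as a short read.

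**Figure D5:**
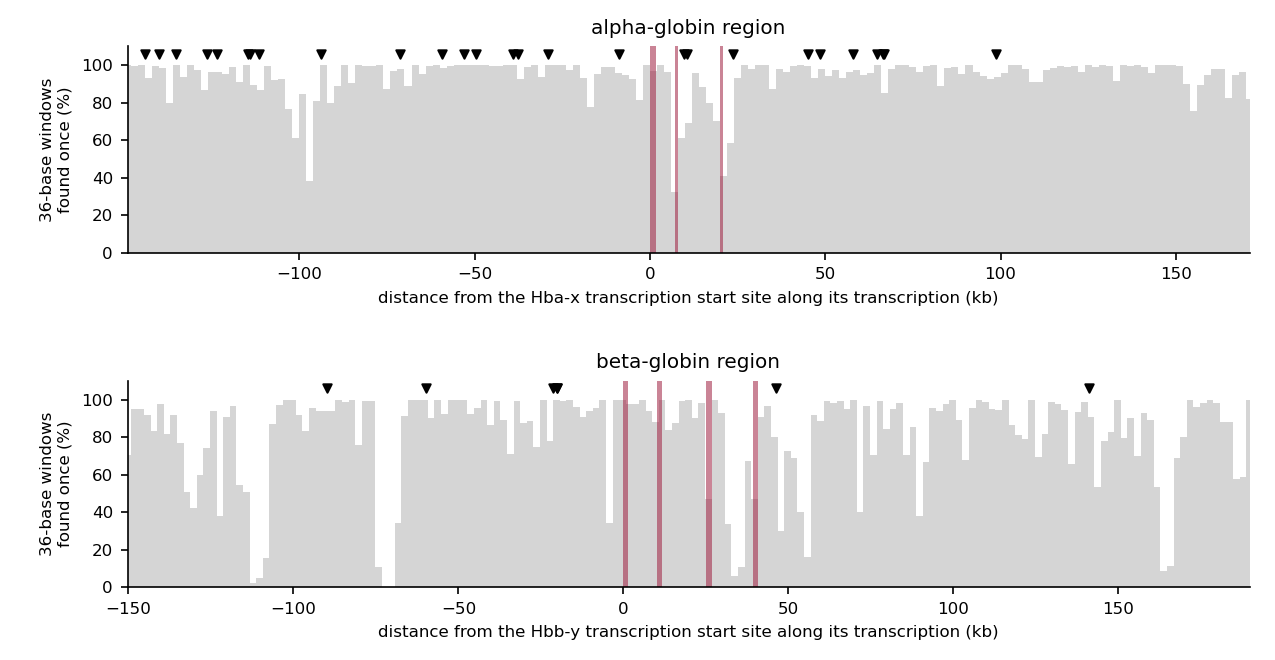
Share of 36-base windows found once in the genome (y axis, %) in steps of 2 kb by distance from the TSS of Hba-x (top) or Hbb-y (bottom) along its transcription (x axis, kb). Red bands are the listed genes and black triangles the optimal-list sites. Inside the beta cluster the share falls to 6% at 33.7 kb, between Hbb-bs and Hbb-bt, where no site was called. Outside it the share falls to 0% at -70.3 kb, upstream of Hbb-y. The theta-globin sites stand in a partly duplicated stretch.

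RefSeq promoters (GRCm38.p6, around the start) were given for 6 of the 7 genes and not for Hbb-bh1. A match with at most 2 mismatches, sought on both strands, was present in 1 of 6, that of Hbb-bs with 2 mismatches, and in 14.4% of all 32851 promoters, so the share in the listed genes was near that of all. The promoters of Hbq1b and Hbq1a each had 1 with 1 mismatch, the match printed above.

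The pooled list added weak peaks, nearly all around the alpha cluster. Outside the optimal list it had 83 summits in the alpha region (signal values 5.30 to 27.1, median 7.34), of which 14 had a q-value at or under 0.05 and 17 had a summit within 100 bp in both replicates. The strongest were 32187488 (27.1; 17.6 and 10.5), 32230352 in introns of Mpg and Nprl3 (21.4; 11.5 and 7.76) and 32303238, 3169 bp from the TSS of Hbq1a (19.8; 15.8 and 4.02). Of these, 32187488 and 32230352 overlapped peaks of the conservative list, and 32303238 did not. Inside the alpha cluster it added 3, with values from 6.52 to 7.81 and q-values from 0.295 to 0.533, each in 1 replicate. The beta region had 5 such summits (5.41 to 8.68), 0 at that q-value and 0 in both replicates. The strongest were 103933389 (8.68), 103883295 (7.92), in an intron of Olfr66, and 103882326 (5.49). The pooled list had a fixed length, so its weakest entries are not calls at a set error rate.

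Genes that work with the globins gave the setting. Among erythroid regulators, 7 of 14 had a site at 1 kb or less from a TSS, beside 30.5% of all genes. The strongest were at Kit, the stem cell factor receptor (135; 80.1 and 58.2), Bcl11a, a repressor of fetal globin (134; 70.4 and 62), Lmo2, an adaptor in an erythroid transcription complex (123; 65.7 and 56.8), and Gfi1b, a repressor (40.7 and 47.6 in the replicates). Of genes for heme synthesis and globin assembly 4 of 9 had one: Ppox (101), Fech (67.2), Cpox (50.2) and Alad (16.7), all enzymes of heme synthesis. Of genes of the red cell membrane skeleton, Add2, beta-adducin (141), and Sptb, beta-spectrin (46.7), had one. Several of these genes also act outside red cells. Among other globin genes in the annotation 2 of 6 had one, Hbq1b and Hbq1a. Outside the clusters, Mb, the muscle oxygen store myoglobin, had its nearest site 3051 bp from the TSS (130; 60.1 and 70.3), Cygb, cytoglobin, 3696 bp (66.8; 44.5 and 24.6) and Ngb, neuroglobin, 13821 bp (61.9; 33.2 and 26.1). These lists are short, and no test was made on them. Blood in the dissected forebrain was not measured, and its share in the signal at the globin regions was not tested.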

How the data were processed

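CTCF ChIP-seq peak lists of 2 libraries (1 group) on mm10, per the labels, were used as deposited. Lists were called on each library, on both together, and thresholded by irreproducible discovery rate into optimal and conservative lists. The aligner and the peak caller, not given in the sources used here, could not be examined. Depth is unknown, so intervals cover counts of sites only. The deposited lists gave a signal value per peak, −log10 of a q-value and, in the authors' optimal and conservative lists, a score; the summit offset placed each summit. The labels name a possible control experiment, not analysed here, and 8 peaks of the optimal list on unplaced contigs were not used.

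A replicate's value at a site was its strongest overlapping peak, with the nearest summit within 100 bp as an alternative. Coordinates are 1-based. Genes were GENCODE M21 basic, TSSs the 5′ ends of transcripts. The CTCF consensus of 14 bases was searched on both strands, each place lying wholly within 50 bp of the summit; a weight matrix came from 20505 matches outside the regions, with 6.12 as the score that 5% of upstream windows pass. Copies of 36-base windows were counted on both strands of 66 genome sequences. Genome windows ran along chromosomes 1 to 19 and X. The members and lists were chosen with earlier results of these data known. Named were the 7 genes, every optimal-list summit in the regions, the 3 strongest further pooled-list summits of each region and up to 4 genes a list by signal value. An item this rule selects is not reported here. The motif places without an optimal-list peak and the 11 repeat letters were chosen after seeing the data. Work used Python 3.11.15, numpy 2.4.6, pandas 2.3.3, scipy 1.17.1, biopython 1.88, numba 0.67.0 and matplotlib 3.10.9. In simulated sequence the scan recovered 100% of 5000 planted matches and a match in 1.80% of random windows, and window copies differed from a direct count at 0 of 2934.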

Additional observations from a re-analysis of the deposited data

How the results depend on the processing

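Of 75 alternatives, 58 left the value within its limit (1.5 times for a count), among them the replicate ratio at all 33 sites where the nearest summit gave one. Those 33 say little, because both rules took the same replicate peak at nearly all sites. At 103873465, where the peaks differed, the centred log2 ratio went from 0.08 to 0.54 and was still counted as the same. The alpha region held 16 optimal-list summits when peaks under the list's median signal value were left out, and the beta region 3. The conservative list gave the alpha region 28 and the beta region 4. As many top peaks from 1 replicate gave 27 to 28 summits in the alpha region and 5 in the beta region, without replicate 1 or without replicate 2. Flanks of 100 kb and 200 kb gave 19 and 34 summits (alpha) and 6 and 7 (beta). Pooled-list summits outside the optimal list numbered 14 (alpha) and 0 (beta) at a q-value of 0.05, and 17 and 0 with a summit in each replicate. With at most 1 mismatch 10 alpha sites kept a match. Unique windows of 50 and 100 bases made up 79.7% and 86.6% of the alpha cluster and 80.4% and 88.4% of the beta cluster. Within 5 kb of a TSS, 2 listed genes had a summit, Hba-a1 and Hba-a2. In the peaks nearest to them, 17.0% and 32.7% of 36-base windows are found once in the genome. No paired analysis was possible because the series has 1 group. Read depth is unknown, so whether weak sites were missed at the listed genes cannot be told.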
